A study of Mus musculus with 6 samples.

Results

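Integrins and their partner adhesion molecules were examined in activated pulmonary ILC2s (aILC2s) of WT and Vsir-/- mice, Vsir being the gene of the immune checkpoint VISTA. The members are 36 genes listed by symbol: 9 integrin alpha and 4 integrin beta subunits, 6 immunoglobulin superfamily molecules, 2 hyaluronan receptors, Epcam, 6 talin, kindlin and scaffold genes, 3 adhesion kinases and 5 tetraspanins. The count table holds 35 of them among its 15212 genes, and all 35 passed the filter on low counts, as did 13166 genes in all; Itga1 was not analysed here. The genes Itgb8 and Itgav were left out of the list.

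Bulk RNA-Seq was done on 3 WT and 3 Vsir-/- libraries. WT mice were BALB/cByJ, and Vsir-/- mice carried the targeted allele of the stock B6N.129S5(B6)-Vsirtm1Lex/Mmucd on a BALB/c background; both were sex-matched and 5 to 8 weeks old. All had received 0.5 µg of intranasal rmIL-33 on 3 consecutive days, and cells were taken on day 4. The sort kept live CD45+ Lineage- CD127+ ST2+ cells, and its Lineage panel removed CD11b+ and CD11c+ cells, whose markers are the products of Itgam and Itgax. The panel also held T cell antigens, among them TCRβ, TCRγδ and CD3ε. Libraries were made from 10 pg of RNA with a SMARTer Ultra Low kit, and the labels speak of freshly isolated as well as cultured ILC2s. The sources do not say that each library came from its own mouse, and the error behind every test may therefore be technical.

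Integrins are heterodimers of an alpha and a beta chain that bind matrix or counter-receptors on other cells. The beta2 integrin LFA-1 (Itgal with Itgb2) binds ICAMs, the beta7 integrins bind the gut addressin MAdCAM-1 (with Itga4) or E-cadherin (with Itgae), and most beta1 integrins bind collagen, fibronectin or laminin. Talins and kindlins attach to the beta tail and switch the dimer to its high-affinity state, the scaffold proteins and kinases link it to actin and to signalling, and tetraspanins gather integrins in membrane microdomains. ILC2s are largely resident in tissue, where they use these molecules to settle, move and meet other cells.

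The libraries held 15680892 to 29197999 counts, the largest total being WT replicate 2. Levels are given as CPM, counts scaled to the library's total, after adjustment by TMM factors of 0.989 to 1.02, and a count of 3, the limit for a gene at 0, stood for 0.104 to 0.193 CPM. Vsir, the targeted gene, had 420 counts in the WT libraries together and 2 in the Vsir-/- libraries. Of 9 ILC2 markers, all were detected, with the interleukin gene Il5 the most abundant, and 7 passed the test, 3 higher and 4 lower in Vsir-/-. By log2 fold change, Il5 (0.92), Il2ra (1.13) and Il7r (0.96) were higher. Gata3 (-0.8), Rora (-0.76), Icos (-1.16) and Thy1 (-1.88) were lower, and Il1rl1 and Ptprc did not pass. Markers of other cell types differed between the genotypes in some lists. The 5 of 10 T cell markers measured summed to 163 to 197 CPM in WT and 74.0 to 91.9 CPM in Vsir-/-, with all 4 tested lower (Trbc2 led) and Trac near 0 at 0.0999 ± 0.0900 and 0.0421 ± 0.0365 CPM (SD, n = 3). The 5 of 8 macrophage and monocyte markers measured summed to 14.4 to 20.8 and 8.54 to 8.83 CPM, with 2 of 4 tested lower (Cd68 led). The 4 of 6 mast cell and basophil markers measured summed to 63.0 to 85.6 and 87.1 to 124 CPM, led by Kit, which was higher in Vsir-/-. Of the 3 tested, 2 were higher, with Kit among them, and 1 was lower. In bulk libraries, fewer cells of a type and less RNA per cell cannot be told apart.

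Across the members, 22 of 35 (62.9%) differed between the genotypes in the edgeR quasi-likelihood test (adjusted p under 0.05, adjusted over all 13166 genes), against 38.9% of all genes tested. In Vsir-/- aILC2s 9 were higher and 13 lower, where 18.9% of all genes were called higher and 20.1% lower. A difference over 1.5-fold was found in 5 members that were higher and 10 that were lower, against 10.1% and 12.3% of all genes. The genotypes did not overlap in CPM in 25 of the 35 (71.4%), as in 49.4% of all genes. The members' median log2 fold change (Vsir-/- over WT) was -0.02 and their median absolute log2 fold change was 0.57, against -0.01 and 0.32 for all genes. The members were chosen with earlier results of these data known, and they were not matched to all genes in level. These shares are therefore no test of adhesion genes as a set. The counts called by role or list below are to be read beside the shares of all genes, and were not tested either.

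**Figure D1:**
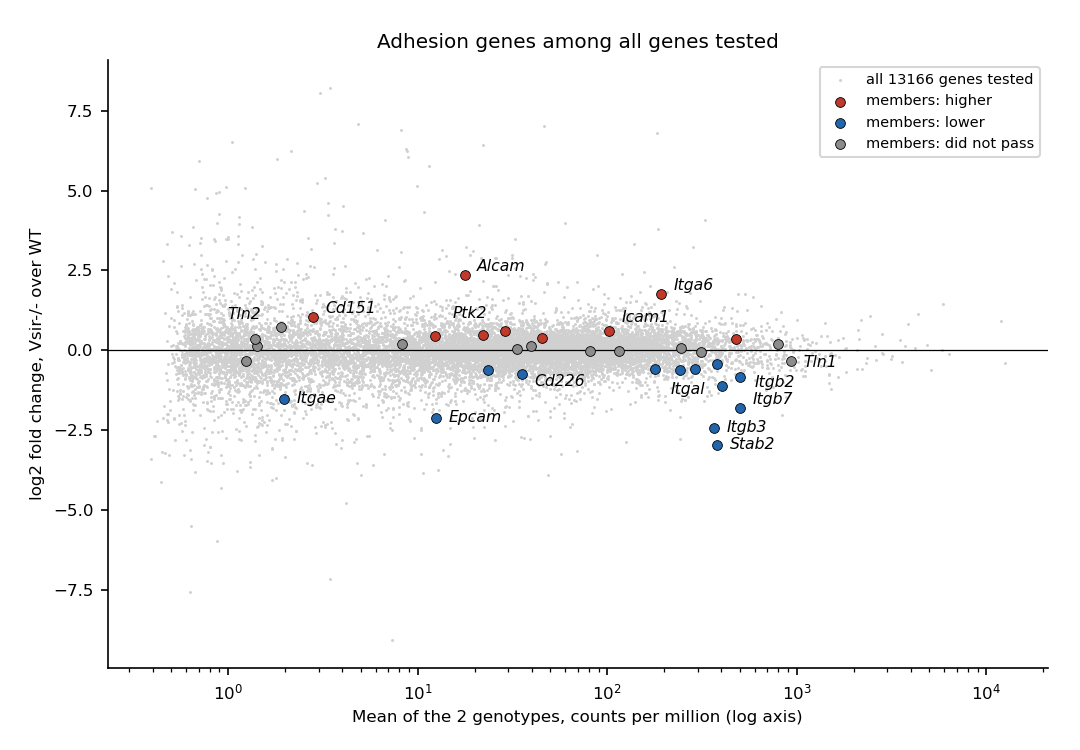
The log2 fold change (Vsir-/- over WT, y axis) is plotted against the mean CPM of both genotypes (x axis, log scale) for all 13166 genes tested in grey, with the 35 members coloured by their call. Stab2 (-2.95), Itgb3 (-2.42) and Itgb7 (-1.81) sit below the bulk of the abundant genes, and Alcam (2.36) and Itga6 (1.75) above it.

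Promoter sequence is shown for 4 members, picked with their values in view. They include those with the largest fall (Stab2), the largest rise (Alcam) and the largest fall of an integrin gene with an entry (Itgb7). The other is the LFA-1 ligand Icam1, whose difference was smaller (log2 fold change 0.61). Each sequence shown is the 250 bases before the RefSeq start site on GRCm38.p6, 5′ to 3′ on the gene's strand. Capitals mark matches to any of 5 motifs. Epcam, which fell more than Itgb7 (log2 fold change -2.12), has an entry without a match and is not shown. The positions of the 4 sequences are chr10:87007943-87008192 (minus strand) for Stab2, chr15:102231936-102232185 (minus) for Itgb7, chr16:52453082-52453331 (minus) for Alcam and chr9:21015690-21015939 (plus) for Icam1.
Stab2: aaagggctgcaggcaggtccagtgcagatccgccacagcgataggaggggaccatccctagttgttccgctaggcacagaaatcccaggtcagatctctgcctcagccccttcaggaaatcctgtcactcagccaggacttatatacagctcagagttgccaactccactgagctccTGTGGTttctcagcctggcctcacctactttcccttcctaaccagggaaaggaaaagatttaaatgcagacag
Itgb7: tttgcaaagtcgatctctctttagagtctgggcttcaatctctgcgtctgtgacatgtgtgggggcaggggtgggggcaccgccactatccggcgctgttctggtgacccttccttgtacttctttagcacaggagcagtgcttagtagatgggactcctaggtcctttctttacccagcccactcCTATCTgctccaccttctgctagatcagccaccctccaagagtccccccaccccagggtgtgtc
Alcam: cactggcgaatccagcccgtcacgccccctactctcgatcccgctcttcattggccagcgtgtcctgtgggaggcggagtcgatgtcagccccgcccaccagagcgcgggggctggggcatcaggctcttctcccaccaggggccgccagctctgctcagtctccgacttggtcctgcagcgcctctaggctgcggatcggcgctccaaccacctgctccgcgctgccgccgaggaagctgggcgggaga
Icam1: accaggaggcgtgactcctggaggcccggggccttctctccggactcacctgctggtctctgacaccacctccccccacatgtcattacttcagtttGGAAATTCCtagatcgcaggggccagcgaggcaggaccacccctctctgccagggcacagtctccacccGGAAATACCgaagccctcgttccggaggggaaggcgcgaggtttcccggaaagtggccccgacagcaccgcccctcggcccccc
The motifs were chosen after these sequences had been seen and were searched on both strands, and a match is only a match of letters. The GATA motif was searched as AGATAA and also with its last base changed, as AGATAG. RUNX was searched as TGTGGT, AP-1 as TGANTCA, a kB-like motif as GGNNNTTCC and FOXO as GTAAACA. Stab2 has a RUNX match that begins 73 bases before the start, Itgb7 a GATA match 64 bases before it on the other strand, and Icam1 a pair of kB-like matches 153 and 84 bases before it. Alcam has no match in this window, which holds 22 CpG dinucleotides at 69.2% GC against 3 at 53.2% GC for Stab2. The RefSeq start of Alcam lies 427 bases from the nearest GENCODE start, that of Stab2 83 bases. An entry was found for 24 of the 36 members. Of these, 3 have a GATA match, 4 a RUNX, 2 an AP-1, 4 a kB-like and 0 a FOXO match. Over all 27025 promoters the shares were 16.9%, 14.2%, 6.87%, 15.6% and 3.09%.

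Among the integrin beta subunits, 3 of 4 were lower in Vsir-/- aILC2s, where 20.1% of all genes were called lower. Itgb1 did not pass, and the median log2 fold change of the 4 was -1.31. Itgb3, which encodes the beta chain of the vitronectin receptor and of the platelet fibrinogen receptor, showed the largest difference of any integrin gene listed. It measured 625, 675 and 557 CPM in WT replicates 1, 2 and 3, and 118, 129 and 99.9 CPM in the Vsir-/- replicates. Every Vsir-/- library thus lay far under every WT library. The fall was 5.35-fold, a log2 fold change of -2.42 ± 0.12 (SE; edgeR adjusted p = 2.45e-07). Itgb3 lies on chromosome 11 (GRCm38, 104608000 to 104670476). Platelets also carry its product, and their markers Pf4 and Ppbp, those of 6 listed that were measured, summed to 0.116 to 1.18 CPM in WT and 0.249 to 0.972 CPM in Vsir-/-.

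Itgb7 encodes the beta chain shared by the alpha4beta7 and alphaEbeta7 integrins of mucosal lymphocytes. Its WT libraries gave 766, 815 and 769 CPM, and its Vsir-/- libraries 223, 213 and 235 CPM. The spread within a genotype was small beside the gap, and the log2 fold change was -1.81 ± 0.08 (3.50-fold lower; edgeR adjusted p = 1.72e-07). Per kb of exon, Itgb7 had the highest level of the 35 members in WT (292 ± 10.3 CPM per kb, SD, n = 3), next to Fermt3 at 286 ± 13.4, and these levels differed by less than their SDs. In Vsir-/- it ranked at 6, with 83.3 ± 4.14 CPM per kb, while Fermt3 ranked first at 328 ± 7.78.

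Itgb2, the beta chain of the leukocyte integrins, measured 639, 664 and 630 CPM in WT and 375, 352 and 367 CPM in Vsir-/-. No library of a genotype came near the other genotype's range, and the gene was 1.77-fold lower (log2 fold change -0.82 ± 0.08, edgeR adjusted p = 1.82e-05). Itgb1, the common partner of the matrix-binding alpha chains, stood apart from the other beta subunits. It measured 117, 108 and 125 CPM in WT and 116, 120 and 107 CPM in Vsir-/-, with overlapping libraries. Its log2 fold change of -0.03 has a 95% interval from -0.23 to 0.18, and did not pass the test.

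**Figure D2:**
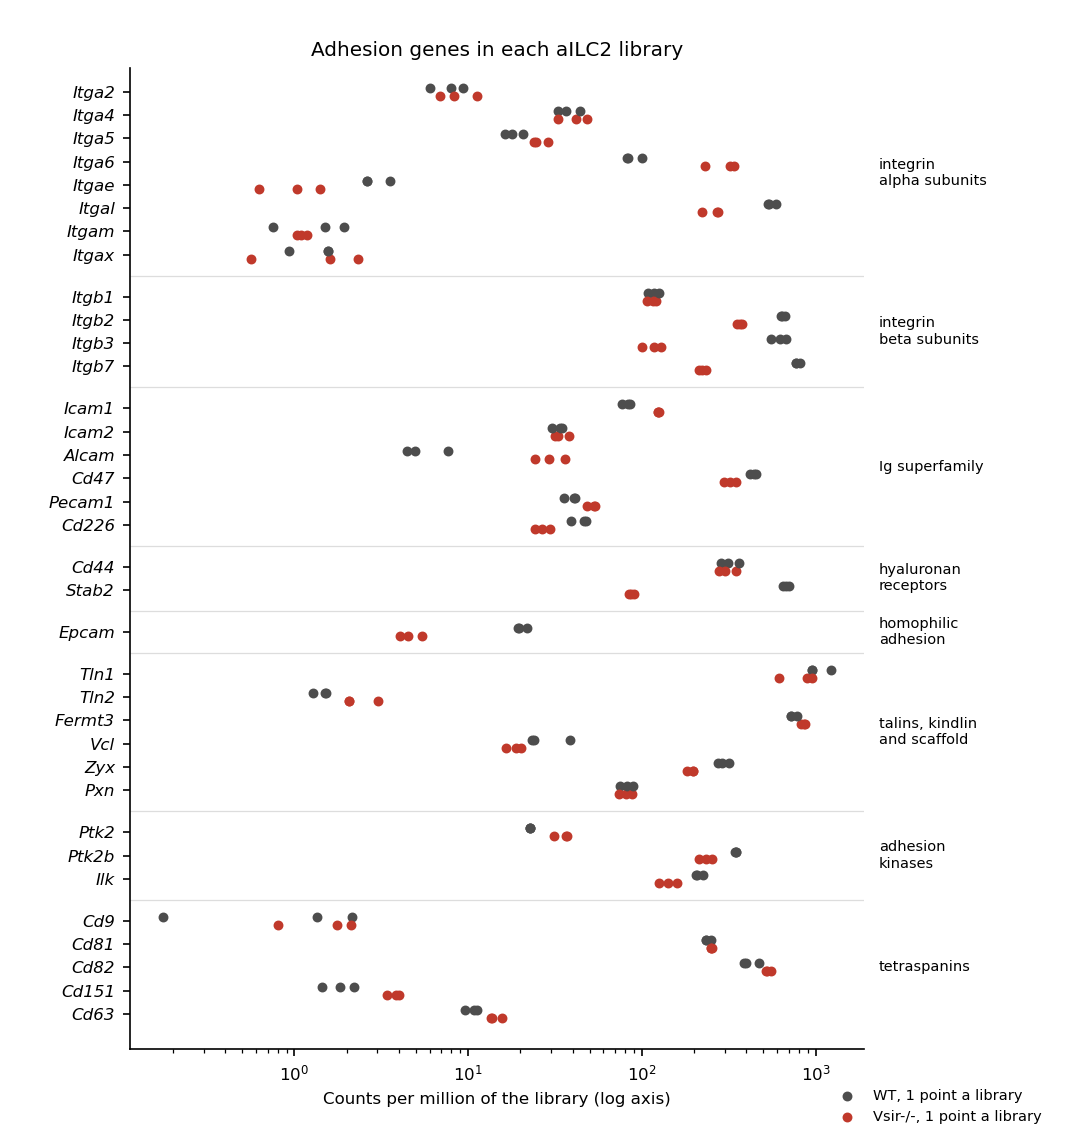
CPM of each of the 35 members (rows, grouped by role) in each library (x axis, log scale); each point is 1 library, grey for WT and red for Vsir-/-. Itgb3, Itgb7, Stab2, Epcam, Alcam and Itga6 show wide gaps between the genotypes, while the points of Itgb1, Cd44 and Pxn lie over each other.

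The alpha subunits moved in both directions: 2 of the 8 measured were higher, 2 lower, and 4 did not pass. Itga6, whose product pairs with the beta1 or beta4 chain to bind laminin, showed the largest rise. Its WT libraries gave 83.4, 82.0 and 99.8 CPM, and its Vsir-/- libraries 322, 338 and 232 CPM. Vsir-/- replicate 3 was the lowest of its group and still above every WT library. The gene was 3.37-fold higher (log2 fold change 1.75 ± 0.14, edgeR adjusted p = 7.98e-06). Itga5, the alpha chain of the classical fibronectin receptor, was 1.40-fold higher, with 16.2 to 20.8 CPM in WT and 23.8 to 28.7 CPM in Vsir-/- (edgeR adjusted p = 0.0147). The call for Itga5 was lost without WT replicate 1, without Vsir-/- replicate 2 and with replicates 1 and 2 of each genotype summed, where the log2 fold change was 0.47, 0.42 and 0.49 and the edgeR adjusted p 0.0564, 0.0550 and 0.0586.

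Itgal, the alpha chain of LFA-1, fell together with its partner Itgb2. It measured 538, 532 and 590 CPM in WT against 272, 275 and 222 CPM in Vsir-/-, and the ranges lay far apart. The fall was 2.16-fold (log2 fold change -1.11 ± 0.10, edgeR adjusted p = 1.60e-05). Itgae encodes CD103, the alphaE chain that pairs with beta7. It was scarce, at 3.57, 2.60 and 2.62 CPM in WT and 1.03, 1.40 and 0.622 CPM in Vsir-/-, from 177 and 49 counts over the libraries of each genotype. The genotypes did not overlap, and the gene was 2.84-fold lower (log2 fold change -1.51 ± 0.32, edgeR adjusted p = 0.00373).

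Itga4, the other alpha partner of beta7, measured 36.8, 32.8 and 43.9 CPM in WT and 48.6, 41.9 and 32.8 CPM in Vsir-/-. The libraries overlapped, and the log2 fold change of 0.12 (95% interval -0.22 to 0.47) did not pass. Itga2, a collagen-binding chain, lay between 6.02 and 11.2 CPM in all libraries and did not pass either (log2 fold change 0.19). Itgam and Itgax, the chains of the CD11b and CD11c that the sort gated out, were low in all libraries, from 0.756 to 1.94 CPM and from 0.560 to 2.31 CPM, and neither passed.

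The make-up of the integrin RNA is given as shares of CPM per kb within the listed chains. Itgal held 73.8 ± 0.363% of the sum over the 8 alpha chains in WT and 33.5 ± 1.66% in Vsir-/- (SD, n = 3), and Itga6 held 17.2 ± 0.832% and 56.4 ± 1.98%. The summed alpha chain level was 117 ± 7.30 CPM per kb in WT and 121 ± 19.3 in Vsir-/-, which lie within their SDs of each other. The 4 beta chains together summed to 646 ± 23.1 CPM per kb in WT and 256 ± 4.33 in Vsir-/-. Within that sum Itgb7 went from 45.2 ± 0.516% to 32.5 ± 1.40%, and Itgb3 from 16.5 ± 1.06% to 7.82 ± 1.06%. The share of Itgb2 was 33.6 ± 0.282% in WT and 47.9 ± 0.714% in Vsir-/-, and that of Itgb1 4.74 ± 0.512% and 11.7 ± 0.765%, while Itgb2 was called lower and Itgb1 did not pass. Exon lengths come from merged coding transcripts, and which transcripts these cells use was not measured. Shares add to a fixed sum, so they were not tested.

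**Figure D3:**
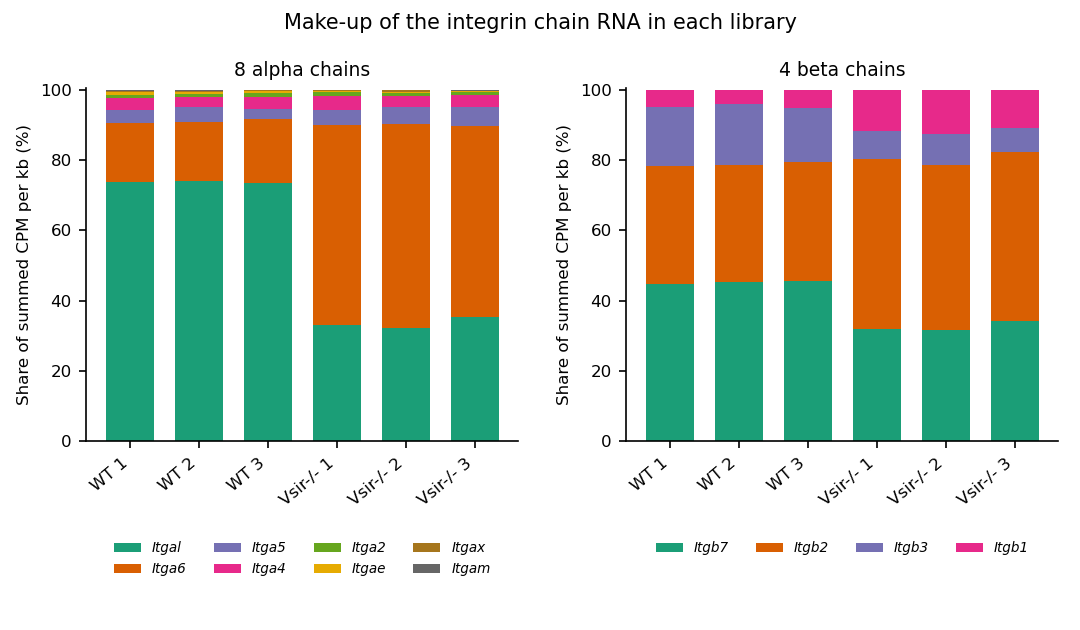
Bars show, for each of the 6 libraries (x axis), the percentage of the summed CPM per kb that each of the 8 alpha chains (left) or 4 beta chains (right) holds. Itgal gives way to Itga6 as the leading alpha chain, from 73.8% to 33.5% for Itgal, and Itgb7 to Itgb2 as the leading beta chain.

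Ratios of counts within a library do not depend on its depth, and they set the partner chains against each other. They are not corrected for exon length, so they give no proportion of the chains. Each library of WT held 17.5 to 24.8 counts of Itgb7 per count of Itga4, and each of Vsir-/- 4.59 to 7.16. Counts of Itga6 per count of Itgb1 were 0.711 to 0.800 in WT and 2.17 to 2.82 in Vsir-/-. Both ratios therefore separated the genotypes with no overlap. For the LFA-1 chains, counts of Itgal per count of Itgb2 were 0.801 to 0.936 in WT and 0.604 to 0.779 in Vsir-/-, a smaller gap. Itgae per Itgb7 overlapped, at 0.00318 to 0.00466 and 0.00265 to 0.00657, and so did Itga4 per Itgb1, at 0.305 to 0.352 and 0.306 to 0.418.

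Of the immunoglobulin superfamily molecules, 3 of 6 were higher and 2 lower in Vsir-/- aILC2s (83.3% called, against 38.9% of all genes). Alcam (CD166), which binds itself and the T cell surface molecule CD6, had the largest rise of all members. Its libraries gave 4.44, 7.61 and 4.95 CPM in WT and 36, 29.0 and 24.4 CPM in Vsir-/-. The lowest Vsir-/- library was thus well above the highest WT library. Alcam was 5.14-fold higher (log2 fold change 2.36 ± 0.21, edgeR adjusted p = 1.61e-05). Per kb it moved from place 31 of 35 in WT to place 25 in Vsir-/-.

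Icam1 and Icam2 are both ligands of LFA-1, of which Icam1 passed the test. Icam1 measured 83.2, 85.0 and 76.4 CPM in WT and 124, 126 and 123 CPM in Vsir-/-. It rose 1.52-fold with little spread (log2 fold change 0.61 ± 0.08, edgeR adjusted p = 0.000282), in the opposite direction to both LFA-1 chains. Icam2 measured 34.9, 33.9 and 30.5 CPM in WT and 32.7, 31.5 and 37.8 CPM in Vsir-/-, and its log2 fold change of 0.04 (95% interval -0.21 to 0.29) did not pass. Counts of Icam1 per count of Icam2 were 2.38 to 2.51 in WT and 3.25 to 4.00 in Vsir-/-.

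Cd226 (DNAM-1) is an activating receptor for the nectin family ligands CD155 and CD112. It measured 46.7, 38.9 and 47.6 CPM in WT and 29.6, 24.1 and 26.6 CPM in Vsir-/-, without overlap, and was 1.66-fold lower (log2 fold change -0.73 ± 0.12, edgeR adjusted p = 0.000904). T cells carry it too. The part of the T cell markers that were also lower here, in this difference and in those of Itgal, Itgb2, Itgb7 and Itgae, was not tested. Cd47, the signal that restrains phagocytes through SIRPalpha, was 1.35-fold lower, with 418 to 453 CPM in WT and 298 to 350 CPM in Vsir-/- (edgeR adjusted p = 0.00257). Pecam1 (CD31), a homophilic molecule of endothelium and leukocytes, was 1.32-fold higher, at 35.6 to 41.0 and 48.3 to 53.8 CPM (edgeR adjusted p = 0.00957). Its call was lost when replicates 1 and 2 were summed (edgeR adjusted p = 0.0653). Endothelial markers were not analysed here, and their part in the values of Pecam1 and Stab2 was not tested.

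Of the hyaluronan receptors, Stab2 was lower and Cd44 did not pass. Stab2 (stabilin-2), a large scavenger receptor best known from sinusoidal endothelium, where it clears hyaluronan, had the largest fall of all members. It measured 651, 677 and 699 CPM in WT and 86.8, 90.5 and 84.3 CPM in Vsir-/-. The libraries of each genotype lay close together, and the fall was 7.75-fold (log2 fold change -2.95 ± 0.08, edgeR adjusted p = 1.77e-08). In CPM per kb, Stab2 ranked at 11 of 35 in WT (82.1 ± 2.92) and at 20 in Vsir-/- (10.6 ± 0.374). Cd44, the main hyaluronan receptor of lymphocytes, measured 312, 287 and 360 CPM in WT and 346, 302 and 278 CPM in Vsir-/-. These values overlapped, and the log2 fold change of -0.05 (95% interval -0.29 to 0.19) did not pass.

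Stab2 (86841198 to 87008025), Itgb2 (77530252 to 77565708) and the tetraspanin gene Cd63 lie on chromosome 10, as does Vsir (60346851 to 60372684; GRCm38). Their midpoints lie 26.6, 17.2 and 68.5 Mb from that of Vsir. Sequence of the donor stock that came with the targeted allele and the loss of VISTA cannot be told apart for such genes in this design. The sources used here do not say that the WT mice were littermates of the Vsir-/- mice. For members on other chromosomes, differences between the stocks and the loss of VISTA therefore cannot be told apart either. Of 632 genes tested on chromosome 10, 41.9% were called, against the 38.9% over all genes.

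Epcam, a homophilic molecule of epithelia that is also found on some lymphocytes and dendritic cells, measured 19.4, 19.7 and 21.8 CPM in WT and 4.04, 4.50 and 5.41 CPM in Vsir-/-. Each WT library was over every Vsir-/- library by a wide margin, and the gene was 4.36-fold lower (log2 fold change -2.12 ± 0.15, edgeR adjusted p = 2.56e-06). Epithelial markers were near 0. The 6 of 9 measured summed to 1.86 to 4.94 CPM in WT and 1.60 to 2.25 CPM in Vsir-/-, led by Krt18. Cdh1 stood at 0.333 ± 0.314 and 0.314 ± 0.175 CPM and Krt8 at 0.0231 ± 0.0400 and 0.0214 ± 0.0371 CPM (SD, n = 3). The 2 of 6 dendritic cell markers measured summed to 53.9 to 63.2 and 30.5 to 35.4 CPM, led by Xcr1, which was lower in Vsir-/-. The level of the other, Zbtb46, was 0.317 ± 0.0278 CPM for WT against 0.786 ± 0.198 CPM for Vsir-/- (SD, n = 3), too low to be tested. The part of dendritic cells in the difference was not tested.

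**Figure D4:**
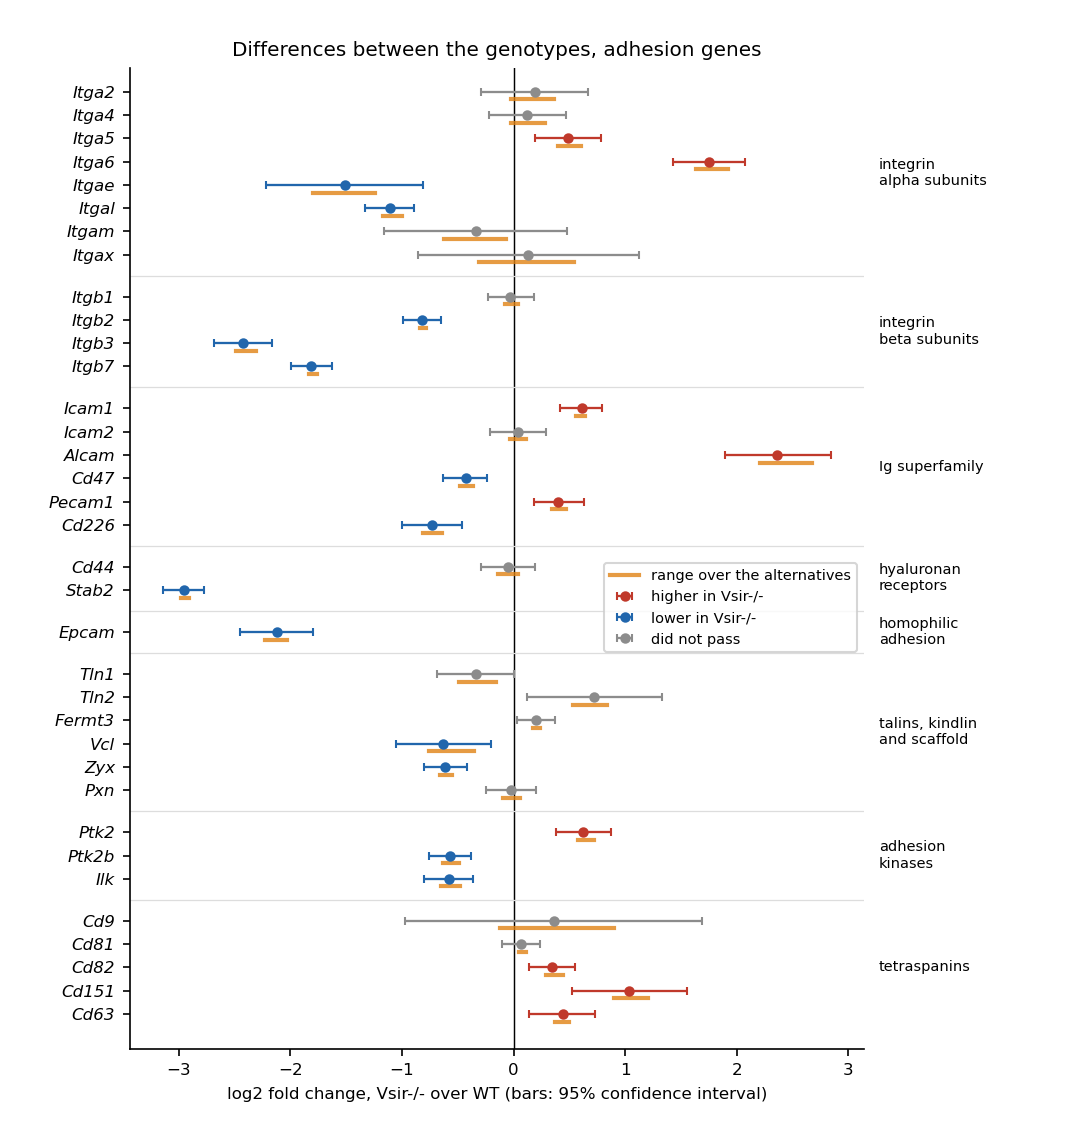
Points give the log2 fold change (x axis, Vsir-/- over WT) of the 35 members, grouped by role, with 95% confidence intervals as bars and the range over the alternative settings as an orange line. Of 22 members that passed, 17 kept their call, at the same threshold, in each of the 14 alternative fits that gave them a value; the intervals of Itgb1, Cd44 and Pxn cross 0.

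The talins and kindlin-3, which bind the beta tail and activate integrins from inside the cell, did not pass. Tln1 (talin-1), the main talin of leukocytes, measured 948, 953 and 1220 CPM in WT and 887, 953 and 619 CPM in Vsir-/-. WT replicate 3 was high and Vsir-/- replicate 3 low, the rest lay together, and the log2 fold change of -0.34 (95% interval -0.69 to 0.00) did not pass. Fermt3 (kindlin-3), which leukocytes need for adhesion through beta2 integrins, measured 719, 780 and 722 CPM in WT and 826, 855 and 865 CPM in Vsir-/-. The genotypes did not overlap, but the log2 fold change was only 0.20 ± 0.08 and did not pass (edgeR adjusted p = 0.0636). It passed with limma voom and without the filter on low counts. Tln2, the relative of Tln1, lay between 1.28 and 1.52 CPM in WT and 2.05 and 3.04 CPM in Vsir-/-, and did not pass (edgeR adjusted p = 0.0562), though it did with limma voom.

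Of the scaffold genes, the actin-binding Vcl (vinculin) and Zyx (zyxin) were lower. Zyx measured 275, 316 and 289 CPM in WT and 198, 197 and 181 CPM in Vsir-/-. It was 1.53-fold lower with no overlap (log2 fold change -0.61 ± 0.09, edgeR adjusted p = 0.000323). Vcl gave 24.0, 23.2 and 38.8 CPM in WT and 20.2, 18.8 and 16.6 CPM in Vsir-/-. WT replicate 3 stood apart as the highest, and the fall of 1.54-fold (log2 fold change -0.63 ± 0.19, edgeR adjusted p = 0.0254) went to a log2 fold change of -0.35 without that library (edgeR adjusted p = 0.0594); the call was also lost without Vsir-/- replicate 2 or 3 and with a replicate block. Pxn (paxillin) measured 75.0, 81.8 and 89.1 CPM in WT and 81.5, 87.4 and 73.4 CPM in Vsir-/-, which overlap (log2 fold change -0.02, 95% interval -0.25 to 0.20).

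The adhesion kinases all passed, in different directions. Ptk2 (FAK), the kinase recruited to integrin adhesions, measured 22.7, 22.7 and 22.6 CPM in WT and 36.7, 36.9 and 31.1 CPM in Vsir-/-, a rise of 1.54-fold (edgeR adjusted p = 0.00134). Its relative Ptk2b (Pyk2), the more abundant of both in leukocytes, was 1.48-fold lower, with 343 to 350 CPM in WT and 214 to 252 CPM in Vsir-/- (edgeR adjusted p = 0.000437). Counts of Ptk2 per count of Ptk2b were 0.0648 to 0.0662 in WT and 0.145 to 0.157 in Vsir-/-, with narrow ranges on both sides. Ilk, a pseudokinase that ties beta tails to actin, was 1.49-fold lower, at 206 to 226 and 126 to 159 CPM (edgeR adjusted p = 0.00110). Exons of Ilk overlap those of Taf10 (2106 bases) and Rrp8 (355 bases), and exons of Vcl those of Ap3m1 (2090 bases), on the opposite strand. The overlap with Taf10 counts all annotated exons and exceeds the 1877 bases of Ilk's merged coding exons. Among other members, Tln1 shares 360 bases with Creb3 and Itga4 1124 with Cerkl, also on the opposite strand. Whether the counting used strand is not given in the sources used here, so reads in the shared parts cannot be told apart.

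Of the 5 tetraspanins, 3 were higher and Cd81 and Cd9 did not pass (60.0% called, against 38.9% of all genes). Cd151, a close partner of the laminin-binding integrins, measured 1.44, 1.83 and 2.21 CPM in WT and 3.85, 4.01 and 3.42 CPM in Vsir-/-. It was scarce but separated the genotypes, at 2.05-fold higher (log2 fold change 1.03 ± 0.23, edgeR adjusted p = 0.00519), the same direction as Itga6. Cd82 (388 to 474 CPM in WT, 520 to 557 CPM in Vsir-/-) was 1.27-fold higher (edgeR adjusted p = 0.0141), a call that was lost without WT replicate 1 (edgeR adjusted p = 0.0852). Cd63, a protein of late endosomes and granules, was 1.35-fold higher (9.54 to 11.2 and 13.5 to 15.7 CPM, edgeR adjusted p = 0.0237), and lost its call in 5 of 14 alternative fits at the same threshold, with an adjusted p of at most 0.0675 there. Cd81, which is abundant on lymphocytes, gave 234, 249 and 233 CPM in WT and 253, 251 and 250 CPM in Vsir-/-. Although no library overlapped, the log2 fold change of 0.07 did not pass. Cd9 lay between 0.175 and 2.13 CPM in all libraries, lowest in WT replicate 3, and did not pass. Its libraries were spread within each genotype, and the 95% interval of the log2 fold change ran from -0.97 to 1.69.

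The rest of the adhesion machinery was looked at in 169 other genes, in 9 lists set by function. Of these, 128 were in the table and 117 were tested; 59 (50.4%) were called, 19 higher and 40 lower, with a median log2 fold change of -0.21. The share called lies between those of all genes (38.9%) and of the members. These lists too were chosen with earlier results known, and the shares were not tested against each other. The other integrin genes tested, Itga3, Itga7, Itgb5 and the beta1-binding Itgb1bp1, did not pass, with log2 fold changes from -0.10 to 0.11.

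Of 16 genes that regulate integrin activation, 8 were lower and 2 higher (62.5% called, against 38.9% of all genes). They included Rasgrp1, an exchange factor upstream of Ras and Rap (108 ± 25.1 CPM in WT and 21.8 ± 2.46 in Vsir-/-, SD, n = 3; log2 fold change -2.30), and the RAP1 effector Rassf5 (-0.65). Inhibitors of RAP1 fell as well, namely Sipa1 (-0.88) and Rasa3 (-1.13). Genes that promote and genes that restrain the RAP1 pathway were thus lower side by side. Of 33 focal adhesion genes 12 were lower and 5 higher (51.5% called), where 20.1% of all genes were lower and 18.9% higher. Tns1 (-1.77), Enah (-1.44) and the kinase gene Fyn (-0.64) were lower, and Lpp, a relative of zyxin, was higher (0.98).

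Of the 9 integrin ligand genes tested, 4 were lower and the other 5 did not pass (44.4% called, near the 38.9% of all genes). Spp1 (osteopontin, a ligand of the beta3 integrin) was lower, at 24.9 ± 5.69 CPM in WT and 12.2 ± 3.54 in Vsir-/- (log2 fold change -1.03). The selectin ligand Selplg fell (-0.71) and the mucin-like Cd24a rose (1.45), the others of the 5 selectin and mucin genes not passing. Among 18 other immunoglobulin and nectin molecules 3 were higher and 6 lower. Tigit, which competes with CD226 for CD155, rose from 3.08 ± 0.431 to 13.8 ± 4.07 CPM (log2 fold change 2.17), opposite to Cd226. The SLAM family members Cd48 (-1.03) and Cd84 (-1.27) and the inhibitory receptor Cd200r1 (-0.63) were lower.

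Stab1, the relative of Stab2, changed in the opposite direction. It measured 9.36 ± 1.30 CPM in WT and 56.2 ± 5.50 in Vsir-/- (log2 fold change 2.58 ± 0.14, edgeR adjusted p = 4.13e-07), a 5.98-fold rise beside the 7.75-fold fall of Stab2. Of the 7 genes tested in the list of hyaluronan genes and CD44 partners (57.1% called), Hyal2 (0.71) and Rdx (0.36) were also higher and Hmmr (-0.34) lower. Among 8 cadherin and catenin genes (62.5% called), Cdh2 (1.08) and Ctnnd1 (0.64) were higher, while Ctnna1 (-0.55), Jup (-0.46) and Ctnnb1 (-0.25) were lower. Of 17 other tetraspanins, 5 were lower and 3 higher (47.1% called, against 38.9% of all genes). Tspan13 (235 ± 5.32 CPM in WT and 117 ± 1.57 in Vsir-/-) and, by log2 fold change, Tspan14 (-1.05), Tspan17 (-1.27) and Tspan32 (-1.03) were lower. The difference between both sets of tetraspanins was not tested.

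**Figure D5:**
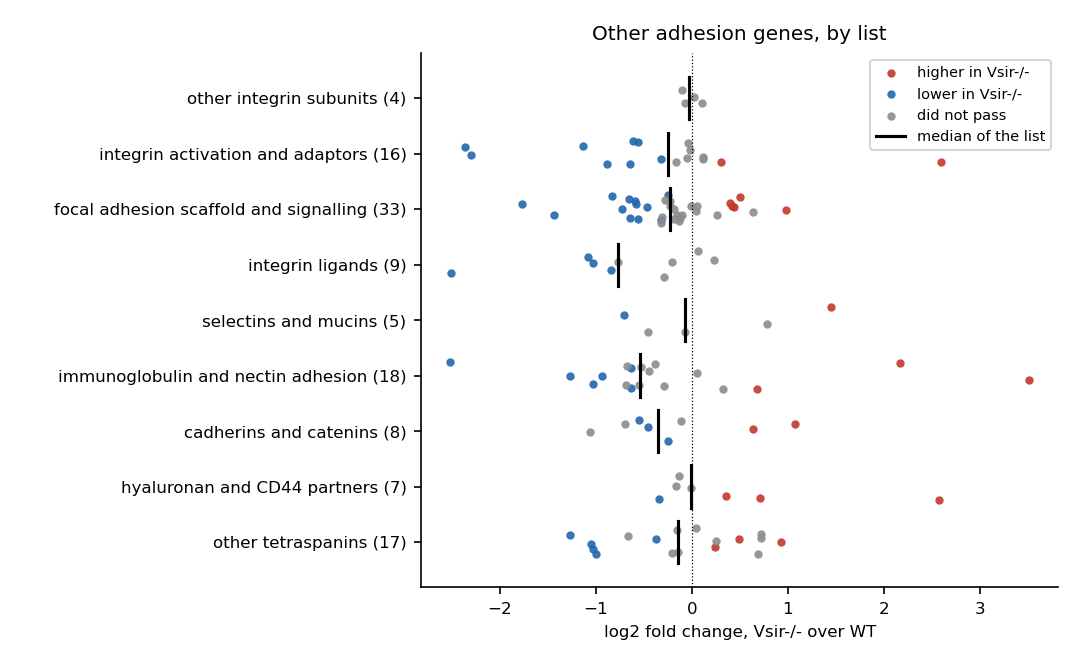
Each point is the log2 fold change (x axis, Vsir-/- over WT) of 1 of the 117 other adhesion genes tested, by list (rows, number of genes in brackets), coloured by call, with the list's median as a black line. The medians run from -0.77 for integrin ligands to -0.01 for hyaluronan and CD44 partners.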

How the data were processed

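RNA of aILC2s was sequenced on a NextSeq 500. The values deposited are estimated counts (expected counts) per gene, made by the authors. The submitters' processing notes name Partek 10.0, STAR 2.7.8, DESeq2 and the build mm10. The annotation and the use of strand are not given in the sources used here. Between 60.8% and 69.5% of the values lay within 0.01 of a whole number, and totals differed between libraries, as unscaled counts do.

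The counts were rounded, where the design named counts as deposited, and genes were filtered with filterByExpr (min.count 10, min.total.count 15) in edgeR 4.0.16 (R 4.3.3, limma 3.58.1, DESeq2 1.42.0). Genotypes were compared with edgeR's quasi-likelihood F test after TMM scaling (common dispersion 0.0149). Benjamini-Hochberg adjustment ran over 13166 genes, and the threshold was 0.05. Limits at 0 cover counting error only. Positions and exon lengths come from GENCODE vM21 (GRCm38), promoters from RefSeq (GRCm38.p6). Scripts were tested on simulated data.

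The members and lists were chosen with earlier results of these data known. Values per library are given for members called with over 1.5-fold change and for members at 10 CPM or more that did not pass, ranges for the rest. Of each other adhesion list, up to 4 called genes by smallest p are named, if the genotype with more had 5 CPM or over, and of each marker list that is described the most abundant gene. All ILC2 markers are named. Trac, Zbtb46, Cdh1, Krt8, Ppbp, Ctnnb1, Itga3, Itga7, Itgb5 and Itgb1bp1 were picked with their values in view. The endothelial and fibroblast markers, and part of the other marker lists, were not analysed here.

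The replicate numbers were not taken to pair the libraries. Over 8564 genes, the correlation of deviations between libraries with the same number was -0.103 for replicate 1, 0.193 for 2 and -0.496 for 3. In the labels, 1 number covers replicates 1 and 2 of a genotype. No library was treated as a copy of another. Counts within a genotype differed beyond sampling noise (chi-square per degree of freedom, 10.2 to 26.8). The value was 10.2 between WT replicates 1 and 2, against 12.1 and 26.8 for the other WT pairs. Between Vsir-/- replicates 1 and 2 it was 12.2, against 20.1 and 21.2. Libraries that share a label number were thus the closest in each genotype. Such values cannot tell separate samples from repeat preparations of 1 sample, so n = 3 may not mean 3 mice. Alternatives were DESeq2, RLE factors, limma voom with quality weights, no filter, a mean of at least 5 CPM, a replicate block, each library left out, replicates 1 and 2 summed, thinned counts, a threshold of 0.01 and a required fold of 1.5.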

Additional observations from a re-analysis of the deposited data

How the results depend on the processing

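Of the 22 members called, 17 kept their call in each of the 14 alternative fits that gave them a value, 5 (Itga5, Pecam1, Vcl, Cd82 and Cd63) lost it in at least 1, and no called value changed sign; 16 changes of sign lay between values that do not pass. These counts hold the threshold of 0.05 and leave out the stricter calling rules, a threshold of 0.01 and a required fold of 1.5. Of members not called, Fermt3 and Tln2 passed in some. With 1 library of 6 left out, 6 to 9 members were higher and 12 to 13 lower, and among the other adhesion genes 13 to 18 were higher and 36 to 39 lower, while 3922 to 4950 of all genes were called. With the replicate block, 8 members were higher and 12 lower, and 4094 genes were called; this moved no count by more than 1.5 times. At a threshold of 0.01, 6 members were higher and 12 lower, 3327 genes were called, and 12 other adhesion genes were higher. With over 1.5-fold required, 5 members were higher and 10 lower, 2954 genes were called, and 11 other adhesion genes were higher. With replicates 1 and 2 summed, 12 other adhesion genes were higher. DESeq2 and edgeR with RLE factors called 9 members higher and 13 lower, as in the report.

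Genes at a few CPM, such as Itgae, Itgam, Itgax, Tln2, Cd9 and Cd151, rest on few counts and their intervals are wide. A p that missed the threshold does not show equal levels. RNA was measured and surface protein was not, and 6 members had no value when a mean of at least 5 CPM was required. The causes of the lost calls were not tested.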
